A study of Mus musculus with 6 samples.

Results

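The BCL2 family decides at the outer mitochondrial membrane whether a cell enters the intrinsic pathway of apoptosis, and 10 of its genes were examined here in whole mouse testes at postnatal day 12. The 10 were taken from the 54232 genes of the deposited count table by gene identifier and symbol: the anti-apoptotic genes *Bcl2*, *Bcl2l1*, *Bcl2l2* and *Mcl1*, the effectors *Bax* and *Bak1*, and the BH3-only genes *Bcl2l11*, *Bbc3*, *Pmaip1* and *Bad*. All 10 were found once in the table and passed the filter on low counts. Bulk RNA-seq was available for 3 libraries labelled *Dis3l2* KO and 3 labelled *Dis3l2* WT, from testes of mice on the B6D2F1 background. In the methods of the study the deleted animals are *Stra8-Cre*; *Dis3l2* F/- mice, called cKO, and the controls are their littermates. *Stra8-Cre* is active in spermatogonia and early spermatocytes. By the F/- genotype, somatic cells and germ cells without active Cre keep the floxed allele beside the deleted allele. A count from a whole testis mixes all of these cells. The WT libraries are called control here, and the others KO-labelled, because *Dis3l2* was not lower under the main scaling of the counts.

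Anti-apoptotic BCL2 proteins hold the effectors BAX and BAK in check. BH3-only proteins, induced or activated by stress, bind the anti-apoptotic proteins or the effectors, and the effectors then open pores in the outer membrane through which cytochrome c leaves to start caspase activation. In the testis this balance is known to set how many germ cells survive the first wave of spermatogenesis, and *Bax*-deficient males are infertile. Messenger RNA is only a part of this control, since MCL1 is a short-lived protein and BAD, BAX and BAK are governed largely after translation.

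*Dis3l2*, a cytoplasmic exoribonuclease, had 31.6, 25.4 and 27.5 CPM (counts scaled to library size by TMM factors) in KO-labelled testes, against 25.8, 23.5 and 23.0 CPM in control testes (log2 fold change 0.22, standard error 0.11, adjusted p = 0.136), and its sign turned, to -0.32 (adjusted p = 0.0399), when the libraries were scaled to markers of somatic cells. *Dis3*, its homolog in the RNA exosome, had 59.1, 64.3 and 68.1 CPM in KO-labelled testes, against 133, 148 and 137 CPM in control testes (log2 fold change -1.13, standard error 0.08, adjusted p = 2.71e-07). The sample labels name *Dis3l2*, whereas a sentence on the design of the deposited series names *Dis3*. The study tested the deletion itself in testes of the same age, by assays that were not analysed here. By in situ hybridization it reports no *Dis3l2* in cKO spermatocytes or in cKO germ cells before meiosis. It also reports significantly less *Dis3l2* transcript by RT-qPCR, and less of the protein by immunoblot, in cKO than in control testes. A count over all exons of a gene can include exons outside a deleted part, and whether this applies to *Dis3l2* here was not tested. Depth was 37533318 to 44956193 counts in the KO-labelled libraries and 33325483 to 41945867 in the control libraries. Markers of other cells moved with the groups under TMM. Of 14 markers of differentiating and meiotic germ cells 13 were lower, and their summed level was 525 to 670 CPM in the KO-labelled and 1642 to 1947 CPM in control testes. Of 14 Sertoli cell markers 13 were higher, summing to 13832 to 14875 CPM in the KO-labelled and 8709 to 9140 CPM in control testes. Macrophage markers summed to 213 to 297 CPM in the KO-labelled and 155 to 181 CPM in control testes, with 6 of 8 higher. Peritubular myoid markers summed to 1028 to 1068 CPM in the KO-labelled and 1226 to 1244 CPM in control testes, with 3 of 6 lower. Under TMM, 6 of 7 markers of all germ cells were lower (473 to 634 CPM in KO-labelled and 1341 to 1504 CPM in control testes), whereas 5 of 10 markers of undifferentiated spermatogonia were higher and 0 lower (493 to 595 CPM in KO-labelled and 455 to 488 CPM in control testes). Leydig cell markers (5 of 7 higher) summed to 763 to 789 CPM in KO-labelled and 517 to 594 CPM in control testes, and endothelial markers (2 of 6 higher) to 386 to 437 CPM in KO-labelled and 297 to 334 CPM in control testes. Stromal sums overlapped with 3 of 6 higher, and of the red blood cell markers 0 of 3 tested passed. Scaled to somatic markers, 5 of the Sertoli, 1 of the Leydig, 1 of the undifferentiated spermatogonia and 0 of the macrophage, endothelial and stromal markers passed as higher. Under that scaling 4 of the undifferentiated spermatogonia, 5 of the myoid, 3 of the endothelial, 1 of the Sertoli and 1 of the Leydig markers passed as lower. So did all 14 markers of differentiating and meiotic germ cells. The somatic lists themselves set that scaling, so their calls under it are not independent of it. Of the spermatid markers, *Tnp2* had no count in any library, and *Prm1* and *Prm2* had at most 1 and 3 counts. The part of these cell types in the values of the BCL2 genes was not tested, and in bulk samples fewer cells of a type and less RNA per cell cannot be told apart.

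Of the 10 genes, 3 passed the test as higher in the KO-labelled libraries, namely *Bak1*, *Mcl1* and *Bcl2l2*, and 0 passed as lower. Their fold changes were 1.36, 1.18 and 1.26. The test was edgeR's quasi-likelihood test, a gene passes at a Benjamini-Hochberg adjusted p under 0.05 over all 20327 genes tested, and p-values measure the spread between these libraries. The study calls the libraries of a group biological replicates, the labels name no animals, and within a group the libraries differed by more than counting error (chi-square per degree of freedom of 11.2 to 28.3 over genes). Over all genes tested, 32.7% passed in either direction, 16.2% as higher and 16.5% as lower. The count of 3 in 10 is close to the share that passed in either direction. In 5 of the 10, every KO-labelled library was above every control library, beside 21.7% of all genes tested. The median log2 fold change of the 10 was 0.24, and that of all genes was -0.02. These directions hold for the TMM scaling, which takes most genes as unchanged. When the libraries were instead scaled to the summed counts of markers of 6 somatic cell types, the median of all genes moved by -0.54, to -0.56, all 10 members had a log2 fold change under 0, 5 of them passed as lower and 0 as higher, beside 52.3% of all genes that passed as lower under that scaling. Relative to the median of all genes, the members kept nearly the same value under both scalings. This was fixed in advance, since a change of factors moves every gene and the median by nearly the same amount. It therefore says nothing about how firm a difference is. The next paragraphs give the value relative to the median for the members.

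**Figure D1:**
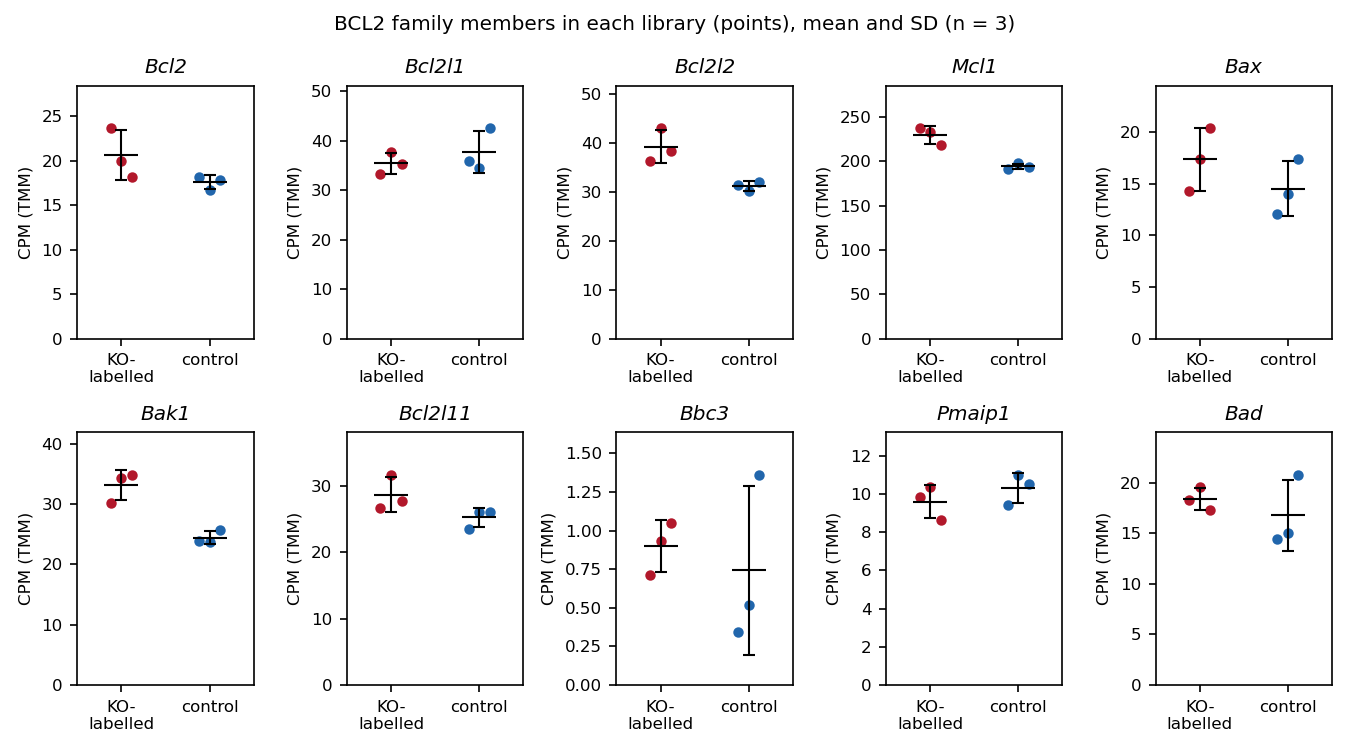
Expression of the 10 BCL2 family genes, in CPM scaled by TMM factors on a linear axis from 0, with the KO-labelled libraries on the left and the control libraries on the right of each panel. Points are libraries, and bars are means with SD (n = 3 each). *Mcl1* stands at 218 to 237 CPM in the KO-labelled and 192 to 198 CPM in control testes. The groups do not overlap for *Bak1*, *Bcl2l2* and *Mcl1*, which passed the test, nor for *Bcl2* and *Bcl2l11*, which did not pass. The direction of these genes turns under scaling to somatic markers.

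Among the anti-apoptotic genes, *Bcl2l2*, which encodes BCL-W, a survival factor of germ cells and Sertoli cells in mice, rose. It had 36.3, 43.0 and 38.2 CPM in KO-labelled testes, against 31.2, 30.05 and 32.0 CPM in control testes. All KO-labelled libraries lay above all control libraries, and KO replicate 2 was the highest. The log2 fold change was 0.33 (standard error 0.10, 95% interval 0.13 to 0.54, adjusted p = 0.0155), or 0.36 above the median of all genes, and it turned to -0.20 (adjusted p = 0.179) under the somatic scaling. The call was lost without KO replicate 2 (log2 fold change 0.27, adjusted p = 0.0904) and without WT replicate 1 (0.33, adjusted p = 0.0551). Reads in the 13.3% of its exon bases that it shares with *Gm20521* on the same strand could not be given to either gene. *Bcl2l2* lies on chromosome 14 from 54883377 to 54888234 of GRCm38, on the plus strand.

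*Mcl1*, the short-lived guardian that binds BAK and BIM, also rose, and it was by far the most abundant member. It had 237, 233 and 218 CPM in KO-labelled testes, against 192, 198 and 194 CPM in control testes. The groups did not overlap, and the control libraries lay close together. The log2 fold change was 0.24 (standard error 0.07, 95% interval 0.08 to 0.40, adjusted p = 0.0203), 0.26 above the median of all genes. Under the somatic scaling it turned to -0.30 and passed as lower (adjusted p = 0.0108), 0.26 above that scaling's median. Without KO replicate 2 or without WT replicate 1 the gene no longer passed (log2 fold change 0.24 with adjusted p = 0.0711, and 0.23 with adjusted p = 0.109). *Mcl1* lies on chromosome 3 from 95658788 to 95663176, on the plus strand.

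*Bcl2*, the founding member (chromosome 1, 106538178 to 106714274), did not pass. It had 23.7, 19.96 and 18.2 CPM in KO-labelled testes, against 18.2, 16.7 and 17.9 CPM in control testes. KO replicate 1 stood above the rest, and KO replicate 3 and WT replicate 1 had nearly the same value. On the log2 scale this is a difference of 0.23 (standard error 0.12, 95% interval -0.03 to 0.49, adjusted p = 0.168), and -0.32 (adjusted p = 0.0545) under the somatic scaling. Relative to the median of all genes it was 0.25 under TMM and 0.24 under the somatic scaling, and the log2 fold change was 0.13 without KO replicate 1. *Bcl2l1*, which encodes BCL-XL (chromosome 2, 152780668 to 152831728), had 33.4, 37.7 and 35.4 CPM in KO-labelled testes, against 35.9, 34.6 and 42.6 CPM in control testes. The groups overlapped, and WT replicate 3 was the highest library. Its log2 fold change was -0.09 (standard error 0.10, 95% interval -0.31 to 0.13, adjusted p = 0.56), which became 0.01 without WT replicate 3 and -0.62 (adjusted p = 0.00105) under the somatic scaling. Relative to the medians it was -0.06 and -0.07. *Bcl2l1* was the only anti-apoptotic gene with a negative sign under TMM with all libraries, and its interval leaves a fall of up to 0.31 and a rise of up to 0.13 possible.

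Promoter windows from RefSeq (GRCm38.p6), each running from 250 bases before to 50 after a transcript start, were searched for short motifs in 9 of the 10 members, 15 windows in all. The motifs were chosen with the expression values known. Searched on both strands, with overlapping matches each counted, were the GC box GGGCGG bound by SP1-type factors, the CCAAT box, the E-box CACGTG, the FOXO core GTAAACA and the p53 half-site. The GC box was found in 10 of the 15 windows, in 7 of the 9 members, beside 35.7% of all 32851 windows, and the CCAAT box in 4 of the 15, beside 37.4% of all windows. The next lines show a stretch of 150 upstream bases outside annotated exons for each of the 2 anti-apoptotic genes that passed the test. The stretches run 5′ to 3′, with the GC box of the opposite strand in capitals. The *Mcl1* stretch is chr3:95658571-95658720 and the *Bcl2l2* stretch is chr14:54883227-54883376, both on the plus strand.
Mcl1: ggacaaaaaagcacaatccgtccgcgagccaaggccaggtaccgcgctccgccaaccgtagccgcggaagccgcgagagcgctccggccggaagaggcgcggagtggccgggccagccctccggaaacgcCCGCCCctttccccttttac
Bcl2l2: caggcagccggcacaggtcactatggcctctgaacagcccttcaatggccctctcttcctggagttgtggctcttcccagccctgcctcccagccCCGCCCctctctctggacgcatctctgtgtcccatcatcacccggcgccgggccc
Each of the 2 windows held 1 GC box, at base -20 in *Mcl1* and -103 in *Bcl2l2*, and no match to the other motifs. The other gene that passed, *Bak1*, had 0 GC boxes, and so did every window of *Bcl2l1*. Of the genes that did not pass, *Bcl2* had 7, *Bax* 3 and *Bcl2l11* 3 in each window. *Bad* had 4 and 0, and *Bbc3* 5, 4 and 7 per window. The *Bbc3* windows from 16310011 and 16310181 overlap, so counts of windows are not independent. Windows with a GC box were 57.3% to 78% G or C. A match is a description of the letters and shows no binding.

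Both effectors had higher means in the KO-labelled libraries under TMM, and only *Bak1* passed the test. *Bak1* encodes BAK, which resides in the outer mitochondrial membrane and forms pores once activated. It had 30.3, 34.3 and 34.9 CPM in KO-labelled testes, against 23.8, 23.8 and 25.8 CPM in control testes. The groups were well apart, with no library between 25.8 and 30.3 CPM. The log2 fold change was 0.44 (standard error 0.10, 95% interval 0.22 to 0.65, adjusted p = 0.00372), the largest of the 10 under TMM. Relative to the median of all genes it was 0.46 under either scaling, while the log2 fold change itself was -0.09 (adjusted p = 0.561) under the somatic scaling. It passed in each of the 6 fits that left out a library, with log2 fold changes of 0.41 to 0.51 and adjusted p of at most 0.023. *Bak1* lies on chromosome 17 from 27019810 to 27029009 on the minus strand, and its RefSeq window falls inside an annotated exon.

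*Bax* (chromosome 7, 45461697 to 45466898), whose protein moves from the cytosol to mitochondria, varied more between libraries than *Bak1*. It had 14.3, 17.3 and 20.4 CPM in KO-labelled testes, against 12.1, 14.0 and 17.4 CPM in control testes. Only KO replicate 3 exceeded every control library, so the groups overlapped. This gave a log2 fold change of 0.26 (standard error 0.16, 95% interval -0.08 to 0.59, adjusted p = 0.239), and -0.27 (adjusted p = 0.236) under the somatic scaling, or 0.28 and 0.29 above the medians of all genes. Single libraries moved it, to 0.13 without KO replicate 3, 0.14 without WT replicate 1 and 0.41 without WT replicate 3. Of its exon bases 12.2% are shared with *Gm45808* on the same strand, where reads could not be assigned. Its promoter window held 2 of the E-boxes bound by MYC and USF proteins. The motif was in 2 of the 15 windows of members, the other of *Bbc3*, beside 7.15% of all windows. It also held 1 p53 half-site at base -201, the only match in the 15 windows of members, beside 8.36% of all windows. *Bax* and *Bbc3* are both known to be induced by p53, and no *Bbc3* window held a match. The 60 bases before the start, chr7:45466899-45466958 on the minus strand, are shown with the upstream E-box in capitals.
Bax: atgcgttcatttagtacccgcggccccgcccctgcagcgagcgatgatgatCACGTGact

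None of the 4 BH3-only genes passed under TMM. *Bcl2l11* (chromosome 2, 128126038 to 128162547) encodes BIM, which binds every anti-apoptotic member and acts together with BIK in germ cell death in mice. It had 26.6, 31.7 and 27.8 CPM in KO-labelled testes, against 23.6, 26.1 and 26.1 CPM in control testes. The groups did not overlap, and the lowest KO-labelled library was close to the highest control library. Its log2 fold change came to 0.18 (standard error 0.11, 95% interval -0.04 to 0.41, adjusted p = 0.201), and -0.35 (adjusted p = 0.0317) under the somatic scaling, which is 0.21 above the median of all genes under either. It was 0.11 without KO replicate 2. *Bad* (chromosome 19, 6941861 to 6951898), whose BH3-only product is switched off by phosphorylation through AKT, had 18.3, 19.6 and 17.3 CPM in KO-labelled testes, against 14.5, 15.0 and 20.8 CPM in control testes. Here WT replicate 3 was above all KO-labelled libraries and the other control libraries were below them. The log2 fold change was 0.13 (standard error 0.14, 95% interval -0.17 to 0.44, adjusted p = 0.513), and -0.41 (adjusted p = 0.0476) under the somatic scaling, or 0.16 and 0.15 above the medians. It came to 0.040 without WT replicate 1 and 0.32 without WT replicate 3.

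*Pmaip1* and *Bbc3* (chromosome 7, 16308393 to 16318205) encode NOXA and PUMA, the BH3-only proteins best known as p53 targets. *Pmaip1* had 9.82, 10.3 and 8.64 CPM in KO-labelled testes, against 9.45, 11.01 and 10.5 CPM in control testes. The groups overlapped in part. KO replicate 3 was below every control library, and WT replicates 2 and 3 were above every KO-labelled library. The log2 fold change was -0.10 (standard error 0.14, 95% interval -0.41 to 0.20, adjusted p = 0.621), and -0.64 (adjusted p = 0.00274) under the somatic scaling, which is -0.08 from the median of all genes under either. Without 1 library it ran from -0.16 to -0.016. *Bbc3* was the lowest member, with 26, 40 and 40 reads in KO-labelled testes, against 12, 22 and 60 reads in control testes. These are 0.715, 0.934 and 1.05 CPM in KO-labelled testes, against 0.346, 0.518 and 1.36 CPM in control testes. The control libraries spanned the KO-labelled ones, and WT replicate 3 alone was above them. With so few reads the estimate was 0.26 on the log2 scale (standard error 0.50, 95% interval -0.80 to 1.33, adjusted p = 0.73), and its sign turned without WT replicate 1 (-0.06) and under the somatic scaling (-0.27). It was 0.29 above the median of all genes under either scaling, and 1.04 without WT replicate 3. At this depth and spread, the interval of *Bbc3* left room for both a marked fall and a marked rise.

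*Bcl2l11* and *Bbc3* are known targets of FOXO factors, and they were the only 2 of the 9 members searched with a FOXO core, in 2 of the 15 windows, a motif present in 3.65% of all windows. The stretches around the match are shown with the core, or its reverse complement, in capitals. Of the FOXO genes among the regulators, *Foxo3* passed as higher under TMM, and *Foxo1* did not pass (log2 fold change 0.03). Neither *Bcl2l11* nor *Bbc3* passed under TMM, and a link between these genes was not tested. The *Bcl2l11* stretch is chr2:128125788-128125847 and the *Bbc3* stretch is chr7:16310071-16310130, both on the plus strand and outside annotated exons.
Bcl2l11: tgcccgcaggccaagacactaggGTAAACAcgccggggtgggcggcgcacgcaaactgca
Bbc3: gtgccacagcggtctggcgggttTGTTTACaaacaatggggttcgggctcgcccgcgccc
The core begins at base -227 of 1 of the 2 *Bcl2l11* windows and at base -167 of 1 of the 3 *Bbc3* windows, where the start lies within the annotated gene.

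**Figure D2:**
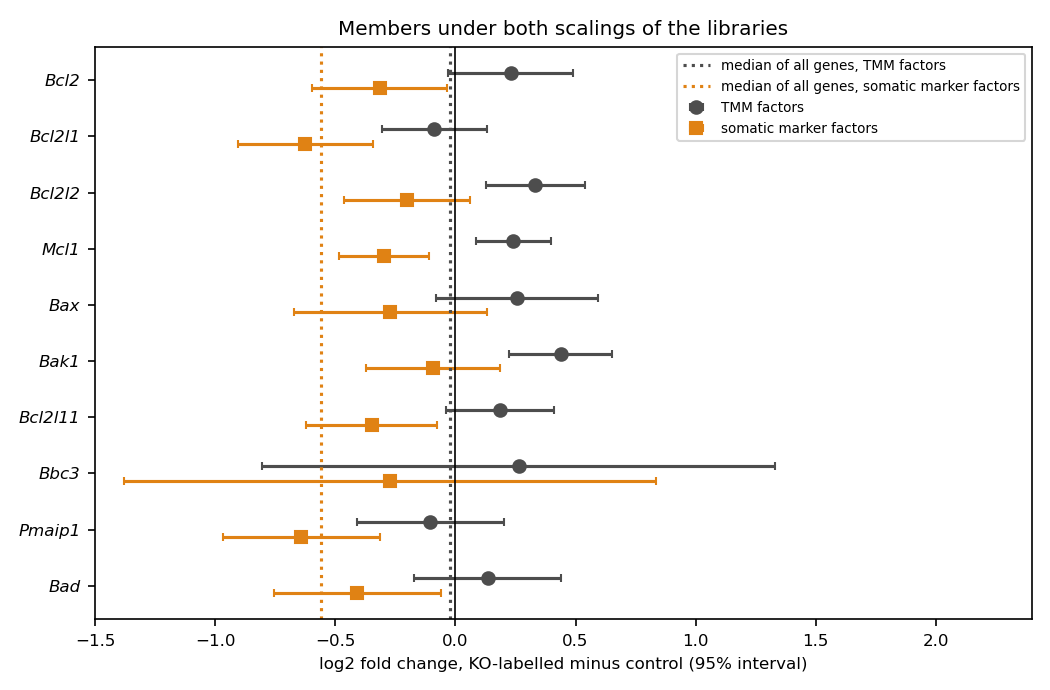
Log2 fold change of each member, KO-labelled minus control, with its 95% interval, from edgeR under TMM factors (circles) and under factors from somatic cell markers (squares). Dotted lines mark the median of all genes tested, -0.02 and -0.56. All squares lie left of 0, and the distance of a member from the dotted line of its own colour is nearly the same under both, for example 0.46 for *Bak1* and -0.06 and -0.07 for *Bcl2l1*. That sameness follows from the arithmetic, since a change of factors moves all genes by nearly the same amount.

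Levels can be compared between the genes only per length, as CPM per kilobase of exon (TMM). On this scale *Mcl1* had 67.2 ± 2.93 in the KO-labelled and 56.9 ± 0.91 in the control libraries (SD, n = 3 each), above 97.0% of the tested genes. *Bak1* followed with 13.8 ± 1.05 in the KO-labelled and 10.2 ± 0.46 in the control libraries, and *Bax* had 11.01 ± 1.92 and 9.21 ± 1.71 in the KO-labelled and the control libraries. *Bad*, *Bcl2l1* and *Bcl2l2* lay close together, between 6.73 and 10.4 in all libraries. *Pmaip1* and *Bcl2l11* lay between 2.93 and 4.16, *Bcl2* between 1.82 and 2.59, and *Bbc3* between 0.16 and 0.64.

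The order of the means was *Mcl1*, *Bak1*, *Bax*, *Bad*, then *Bcl2l2* and *Bcl2l1*, then *Pmaip1*, *Bcl2l11*, *Bcl2* and *Bbc3* in the KO-labelled libraries. The control libraries had the same order except that *Bcl2l1* stood above *Bcl2l2*. *Bcl2l2* was above *Bcl2l1* in all 3 KO-labelled libraries, whereas *Bcl2l1* was above *Bcl2l2* in all 3 control libraries, a difference given as a description with no test. Neighbours whose ranges overlapped in both groups were *Bak1* and *Bax*, and *Bax* and *Bad*. Counting only the exon bases that *Bcl2l2* does not share raised its level to 10.1 in the KO-labelled and 8.04 in the control libraries, so its place beside *Bcl2l1* depends on the length used. *Bax* has 1384 unshared exon bases of 1576, so its place below *Bak1* in the control libraries depends on the length used as well. *Bcl2*, the gene that names the family, was the lowest anti-apoptotic member on this scale, at the 44.1 percentile of the tested genes.

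Summed per kilobase, the anti-apoptotic genes had 87.5, 88.2 and 82.1 in the KO-labelled libraries, against 72.9, 73.9 and 75.1 in the control libraries. *Mcl1* made up 77.3% to 79.4% of that sum in the KO-labelled and 75.5% to 78.2% in the control libraries, so its share was alike in both groups and the sum mainly follows this gene. The effectors summed to 21.7, 25.3 and 27.4 in the KO-labelled libraries, against 17.6, 18.8 and 21.8 in the control libraries. BH3-only genes summed to 16.5, 18.05 and 15.9 in the KO-labelled libraries, against 13.9, 15.1 and 18.2 in the control libraries. The anti-apoptotic sums did not overlap between groups, those of the effectors overlapped narrowly, and those of the BH3-only genes overlapped. These sums were not tested.

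**Figure D3:**
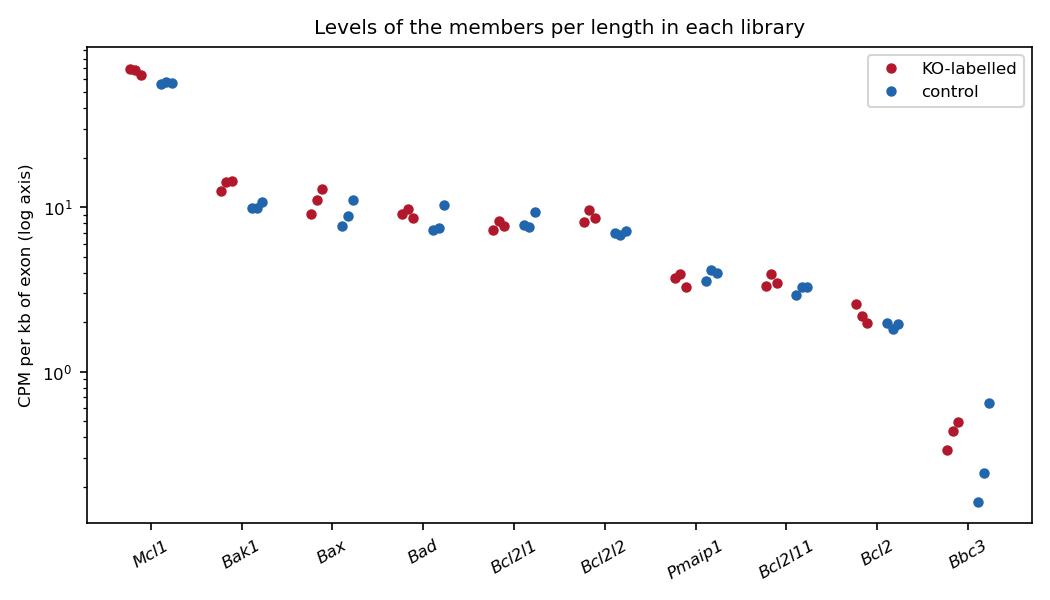
Level of each member per length, in CPM per kilobase of exon on a log axis, with the KO-labelled libraries left of the control libraries for each gene and 1 point per library. Genes are ordered by the control mean. *Mcl1* stands at 56.0 to 69.5, far above the next gene, and *Bbc3* is lowest at 0.16 to 0.64.

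The balance between effectors and their inhibitors was also examined inside each library, where the scaling between libraries cancels. For *Bak1* to *Bcl2l1* the log2 ratio of counts was -0.14, -0.13 and -0.02 in the KO-labelled libraries, against -0.59, -0.54 and -0.73 in the control libraries. The groups did not overlap, and the mean difference of 0.52 was the largest of the 4 ratios (exact two-sided permutation test, p = 0.1, adjusted p = 0.2 over the 4). *Bax* to *Bcl2l1* had log2 ratios of -1.22, -1.12 and -0.80 in the KO-labelled libraries, against -1.57, -1.30 and -1.29 in the control libraries. Here too the groups did not overlap, and the difference was 0.34 (exact permutation p = 0.1, adjusted p = 0.2). With 3 libraries against 3, no permutation p can go below 0.1, so neither difference could pass the threshold.

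For *Bak1* to *Mcl1* the log2 ratios were -2.97, -2.76 and -2.64 in the KO-labelled libraries, against -3.01, -3.05 and -2.91 in the control libraries. KO replicate 1 lay within the control range, and the difference was 0.20 (exact permutation p = 0.2, adjusted p = 0.267). The classical ratio of *Bax* to *Bcl2* was -0.72, -0.20 and 0.16 on the log2 scale in the KO-labelled libraries, against -0.59, -0.25 and -0.04 in the control libraries. It overlapped fully, with a difference of 0.04 (exact permutation p = 0.9, adjusted p = 0.9), and spread more among the KO-labelled libraries (SD 0.45) than any other ratio. Leaving out KO replicate 3 or WT replicate 1 turned its sign, to -0.17 and -0.11.

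**Figure D4:**
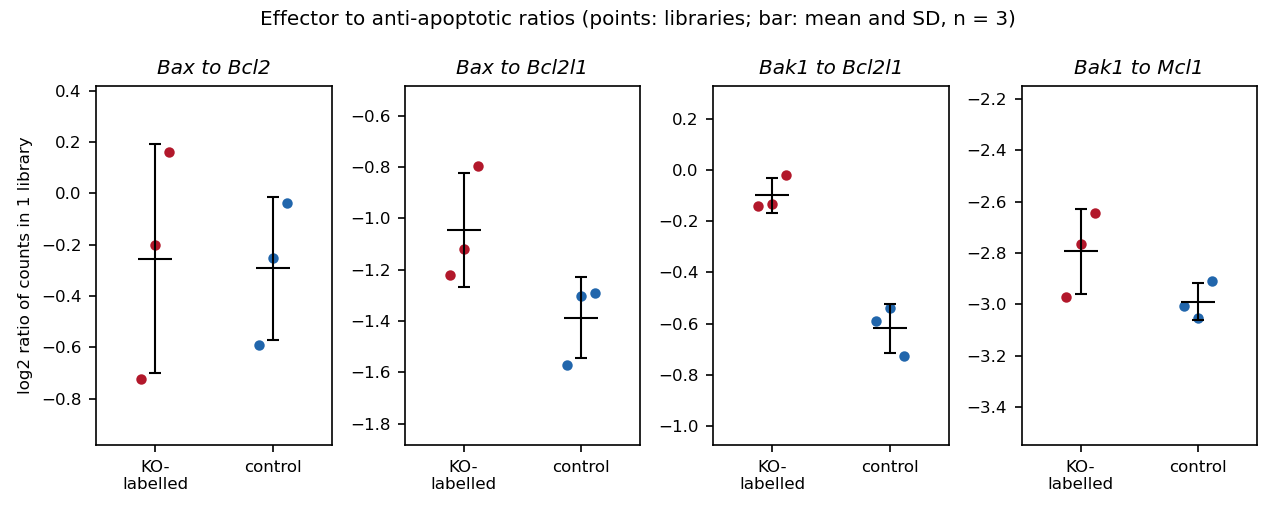
Log2 ratio of the counts of an effector to those of an anti-apoptotic gene in the same library, KO-labelled libraries left of control libraries, with points for libraries and bars for means with SD (n = 3 each). Each panel spans the same height on the log2 scale but has its own offset. *Bak1* to *Bcl2l1* and *Bax* to *Bcl2l1* show groups that do not overlap, with differences of 0.52 and 0.34, and *Bax* to *Bcl2* shows groups that overlap, with a difference of 0.04.

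Of 15 other genes of the family, 9 passed the filter, 3 were higher and 1 was lower under TMM, and 0 were higher and 6 lower under the somatic scaling. For this and the next 3 lists, the shares over all genes were 16.2% higher and 16.5% lower under TMM. Under the somatic scaling 52.3% were lower, and 237 of the 20327 genes tested were higher. *Bok*, a pore-forming relative of BAX and BAK, had 13.7, 18.5 and 13.9 CPM in KO-labelled testes, against 8.99, 8.21 and 11.1 CPM in control testes (log2 fold change 0.70, standard error 0.16, adjusted p = 0.00362). *Bmf*, whose BH3-only product can be tethered to the cytoskeleton, had 35.5, 35.7 and 27.4 CPM in KO-labelled testes, against 22.8, 19.2 and 22.7 CPM in control testes (0.61, standard error 0.12, adjusted p = 0.00148). The BH3-only gene *Hrk* had 3.82, 6.19 and 7.18 CPM in KO-labelled testes, against 3.08, 2.96 and 3.32 CPM in control testes (0.88, standard error 0.23, adjusted p = 0.00872). None of the 3 overlapped between groups, beside 21.7% of all genes tested that were higher without overlap. Their differences exceeded that of any of the 10 members, but the 3 were named because they passed, unlike the members. Under the somatic scaling *Bok*, *Bmf* and *Hrk* kept a positive sign, with log2 fold changes of 0.16, 0.06 and 0.36, but none passed.

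*Bid*, which carries the signal of death receptors to mitochondria after cleavage by caspase 8, fell. It had 16.03, 15.9 and 18.2 CPM in KO-labelled testes, against 24.1, 22.0 and 20.8 CPM in control testes. The groups did not overlap, and the difference on the log2 scale was -0.42 (standard error 0.11, adjusted p = 0.011), and -0.95 under the somatic scaling. The call was lost without KO replicate 2 (adjusted p = 0.0547) and without WT replicate 1 (adjusted p = 0.0715). The other 5 genes tested, *Bik*, *Bcl2l12*, *Bcl2l13*, *Bnip3* and *Bnip3l*, had log2 fold changes of -0.20 to 0.08 and did not pass. *Bcl2a1a*, *Bcl2a1b* and *Bcl2a1d*, near-identical copies between which reads are hard to place, had at most 2 reads in any library, and *Bcl2l10*, *Bcl2l14* and *Bcl2l15* stayed under 0.5 CPM.

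Downstream of mitochondria, 7 of 18 genes were higher and 3 lower under TMM, and 0 were higher and 12 lower under the somatic scaling, so the balance depends on the scaling. *Cycs*, the somatic cytochrome c, had 124, 112 and 114 CPM in KO-labelled testes, against 72.5, 75.4 and 65.5 CPM in control testes (log2 fold change 0.71, adjusted p = 1.88e-05). *Cyct*, the cytochrome c of the testis, which replaces it in spermatocytes and spermatids, had 6.88, 8.68 and 7.05 CPM in KO-labelled testes, against 16.7, 17.8 and 13.1 CPM in control testes (-1.07, adjusted p = 0.000122). The cytochrome c genes thus moved in opposite directions under TMM, while under the somatic scaling *Cycs* had 0.18 and did not pass and *Cyct* had -1.60 and passed. *Apaf1*, the scaffold of the apoptosome, had 15.5, 15.6 and 17.3 CPM in KO-labelled testes, against 22.4, 27.4 and 24.6 CPM in control testes (-0.62, adjusted p = 0.000812). *Diablo*, whose product SMAC frees caspases from their inhibitors, had 7.40, 6.05 and 6.47 CPM in KO-labelled testes, against 15.8, 10.6 and 12.1 CPM in control testes (-0.95, adjusted p = 0.000575). Under the somatic scaling, which moves all genes down, *Apaf1* and *Diablo* had log2 fold changes of -1.15 and -1.499. Relative to the TMM and somatic medians, *Apaf1* had -0.60 and -0.59 and *Diablo* had -0.93 and -0.94. *Casp9*, the initiator that the apoptosome activates, and *Vdac1*, a channel of the outer membrane, were higher under TMM (log2 fold changes 0.61 and 0.63, adjusted p = 0.0019 and 7.37e-05), and had 0.08 and 0.09 without passing under the somatic scaling. The 7 higher genes were not all activators. *Xiap*, *Birc2* and *Birc3*, of the inhibitor of apoptosis family, were among them (log2 fold changes 0.27, 0.32 and 0.48). Under the somatic scaling *Xiap* had -0.27 and passed as lower, and *Birc2* and *Birc3* had -0.22 and -0.06 without passing. The 18 genes had a median of 0.10, beside -0.02 for all genes tested.

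Of 9 genes of the death receptor arm, 8 were tested, with 5 higher and 1 lower under TMM, and 0 higher and 2 lower under the somatic scaling. *Cflar*, which encodes the caspase 8 inhibitor c-FLIP, had 68.7, 66.1 and 54.0 CPM in KO-labelled testes, against 41.0, 41.0 and 39.1 CPM in control testes (log2 fold change 0.64, adjusted p = 0.000189). *Tnfrsf1a*, a receptor of TNF, and *Ripk1*, its kinase adaptor, had log2 fold changes of 0.51 and 0.44 (adjusted p = 0.000482 and 0.00083). Under the somatic scaling *Cflar* had 0.10, *Tnfrsf1a* -0.03 and *Ripk1* -0.10, and none passed. *Tnfrsf10b*, a TRAIL receptor, fell, reaching 11.2, 12.3 and 11.3 CPM in KO-labelled testes, against 15.0, 20.8 and 17.9 CPM in control testes (-0.62, adjusted p = 0.0031, and -1.15 under the somatic scaling). Without KO replicate 2 or without WT replicate 1, 3 genes of this arm passed as higher.

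Of 16 regulators of the members, 6 were higher and 4 lower under TMM, and 1 was higher and 9 lower under the somatic scaling. *Trp53*, the gene of p53, which induces *Bax*, *Bbc3* and *Pmaip1*, had 254, 245 and 228 CPM in KO-labelled testes, against 179, 180 and 189 CPM in control testes (log2 fold change 0.41, adjusted p = 0.000748, and -0.13 without passing under the somatic scaling). *Mdm2*, the ligase that degrades p53 and is itself a p53 target, had 135, 126 and 126 CPM in KO-labelled testes, against 147, 170 and 140 CPM in control testes (-0.24, adjusted p = 0.0434). The call of *Mdm2* was lost under DESeq2, RLE factors, no filter and in 4 of the 6 fits without a library, those without KO replicate 2, KO replicate 3, WT replicate 1 or WT replicate 2 (adjusted p = 0.153, 0.12, 0.0938 and 0.334). The members *Bax*, *Bbc3* and *Pmaip1* did not pass under TMM, and *Pmaip1* passed as lower under the somatic scaling.

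*Foxo3*, a factor that induces *Bcl2l11* and *Bbc3*, had 314, 356 and 350 CPM in KO-labelled testes, against 223, 218 and 244 CPM in control testes (log2 fold change 0.58, adjusted p = 8.57e-05, and 0.04 without passing under the somatic scaling). *Jun*, a subunit of AP-1 on the stress kinase arm, had 134, 128 and 91.8 CPM in KO-labelled testes, against 64.7, 61.1 and 63.6 CPM in control testes (0.90, adjusted p = 4.5e-05). *Jun* was the only one of the 51 other pathway genes tested that passed as higher under both scalings, with 0.35 (adjusted p = 0.0187) under the somatic one. Over all 20327 genes tested, 237 passed as higher under the somatic scaling. *Fbxw7*, a ligase subunit that marks MCL1 for degradation, fell to 45.7, 46.6 and 43.6 CPM in KO-labelled testes, against 65.0, 64.2 and 62.9 CPM in control testes (-0.50, adjusted p = 0.000299, and -1.04 under the somatic scaling). *E2f1*, a cell cycle factor that can raise BH3-only genes, changed by -0.50 on the log2 scale (adjusted p = 0.00336, and -1.03 under the somatic scaling). Without KO replicate 2 or without WT replicate 1, 6 regulators passed in all, beside 10 with every library.

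**Figure D5:**
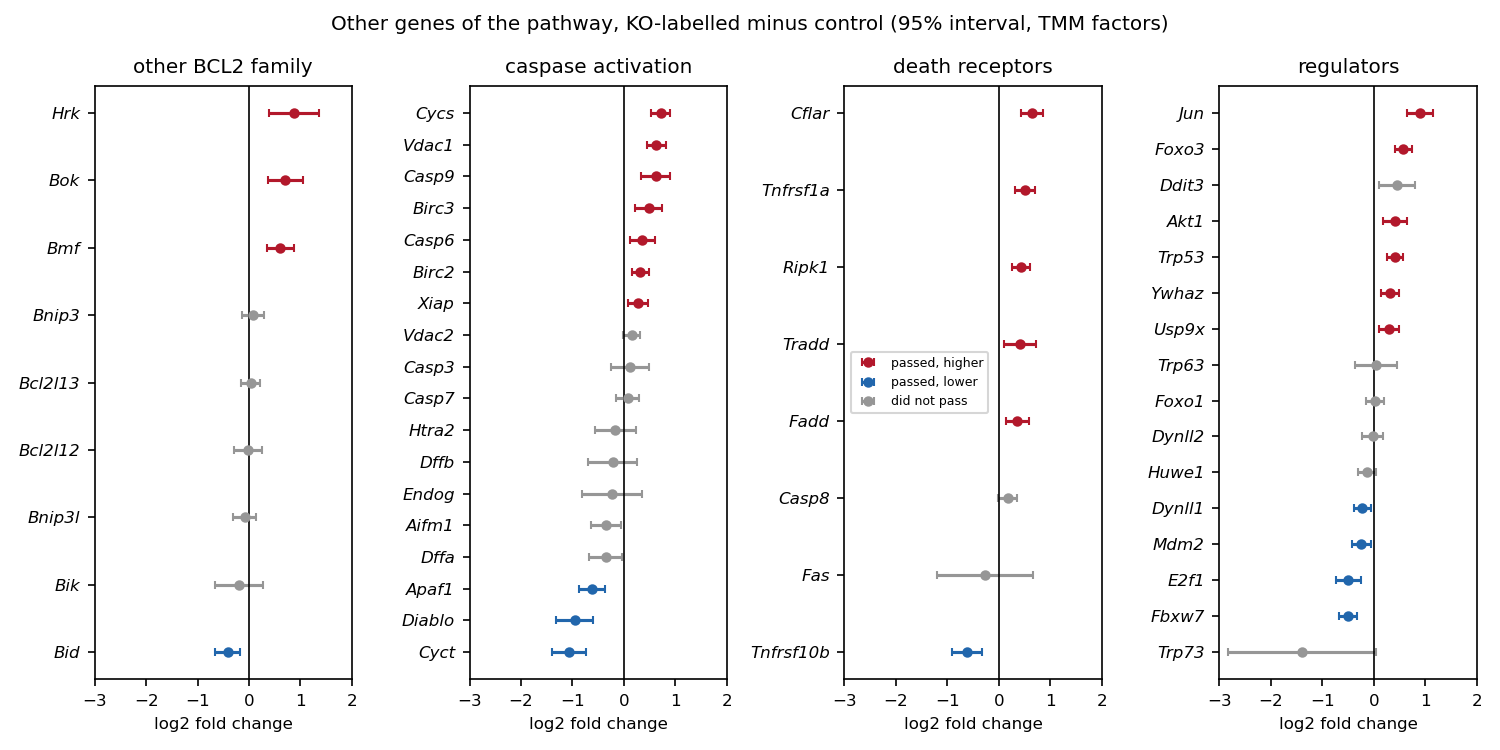
Log2 fold change with 95% interval of the other pathway genes tested, KO-labelled minus control under TMM factors. The 4 panels are other BCL2 family genes, caspase activation (its inhibitors included), death receptors and regulators. Red marks genes that passed as higher, blue those that passed as lower and grey those that did not pass. *Hrk*, *Cycs*, *Cflar* and *Jun* lead the panels at 0.88, 0.71, 0.64 and 0.90. Of the 21 higher ones only *Jun* also passed as higher under scaling to somatic markers, and 12 of the 21 turned sign. Over all 20327 genes tested, 237 passed as higher there.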

How the data were processed

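Bulk RNA-seq libraries of 6 mouse testes (postnatal day 12) were used. The authors trimmed single-end 50-base reads with cutadapt, aligned them with HISAT2 (GRCm38.p5 in the submitters' notes) and counted sense-strand reads per gene with featureCounts 1.6.4 over GENCODE M18. The deposited values are these raw counts for 54232 genes, and 0 library columns were left unused. Symbols came from GENCODE M21 (54079 identifiers matched), and *Ddit3* stands on more than 1 row. The quasi-likelihood test of edgeR 4.0.16 (R 4.3.3) was run on the counts, after filterByExpr and with TMM factors, and was tested on simulated data. CPM used TMM factors, and intervals used the t distribution. Reads shared by overlapping genes or mapping to several places are not counted by the default of featureCounts. Alternatives were DESeq2 1.42.0, limma-voom (limma 3.58.1), RLE, upper-quartile and somatic marker factors, other filters, a replicate block and each library left out. Named were all 10 members, *Dis3l2*, *Dis3* and, of each pathway list, up to 3 genes past the test per direction by smallest adjusted p. *Xiap*, *Birc2*, *Birc3* and those given only as not passing or not tested were named after their values were seen. The members and lists were chosen with earlier results of these data known.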

Additional observations from a re-analysis of the deposited data

How the results depend on the processing

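The 3 calls among the members (*Bcl2l2*, *Mcl1*, *Bak1*) held under DESeq2, limma-voom, RLE and upper-quartile factors, no filter on low counts and at least 10 counts in every library. With the replicate number as a block the members called were again 3, and 6561 genes passed over all genes, beside 6641. The numbers do not pair the libraries (correlations of deviations -0.0014, -0.0126 and 0.0139). The mean of the same-number differences equals the mean difference of each ratio, 0.04, 0.34, 0.52 and 0.20 in the order *Bax* to *Bcl2*, *Bax* to *Bcl2l1*, *Bak1* to *Bcl2l1* and *Bak1* to *Mcl1* (exact sign-flip p of 0.75 for the first and 0.25, the smallest possible, for the others). Leaving out 1 library gave 1 to 3 members called, all higher, with *Bak1* alone without KO replicate 2 and without WT replicate 1. It gave -0.17 to 0.27 for *Bax* to *Bcl2*, -0.12 to 0.012 for *Bcl2l1* (highest without WT replicate 3) and -0.063 to 1.04 for *Bbc3* (lowest without WT replicate 1). Scaling to somatic markers changed most: 10864 genes passed, 237 higher and 10627 lower. Of the members 5 passed, 0 higher and 5 lower, and of the other pathway genes 1 was higher and 29 lower. Log2 fold changes reversed to -0.32 for *Bcl2*, -0.20 for *Bcl2l2*, -0.30 for *Mcl1*, -0.27 for *Bax*, -0.094 for *Bak1*, -0.35 for *Bcl2l11*, -0.27 for *Bbc3*, -0.41 for *Bad*, -0.32 for *Dis3l2*, -0.029 for *Tnfrsf1a*, -0.10 for *Ripk1* and -0.13 for *Trp53*. This follows from the construction of that scaling, which moved the median of all genes by -0.54. Which scaling is nearer to the RNA per testis was not tested. Depth limits *Bbc3* most, with 12 to 60 reads a library.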
